A study of Mus musculus with 56 samples.

Results

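The 5 period and cryptochrome genes, Per1, Per2, Per3, Cry1 and Cry2, were taken by symbol from the gene table, whose identifiers were matched to GENCODE vM21. They make 5 of 25415 genes listed, and all 5 were among the 25243 genes tested. They were followed across the livers of 56 C57BL/6J females, 9 weeks old, after 7 days of feeding in the light phase alone (daytime restriction, DRF) or in the dark phase alone (nighttime restriction, NRF, the reference). The labels name no transgene or deletion in any animal, and all animals lived under 12 h of light per day and had 7 days of free access to chow before the regimens began. Livers were collected when 0 h had passed since the lights came on (zeitgeber time, ZT, 0) and at ZT 4, 8, 12, 16, 20 and 24, with 4 animals for each regimen and time, which makes 14 groups. The clock hours at which food was given are not stated in the labels.

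PER and CRY proteins form the negative arm of the circadian clock. The activators BMAL1 (encoded by Arntl), CLOCK and NPAS2 bind E-box sequences and drive transcription of the Per and Cry genes, and PER and CRY proteins gather in a complex that returns to the nucleus and represses these activators. Casein kinases and ubiquitin ligases set how long PER and CRY proteins last, D-box factors (DBP, TEF, HLF and NFIL3) and the nuclear receptors of the REV-ERB and ROR families add further control, and in liver Per1 and Per2 also respond to cAMP and glucocorticoid signals. The liver clock is known to follow the time of feeding.

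The stretch of DNA before each start site is shown because the 5 genes are known to share regulators that bind there. RefSeq promoter windows on GRCm38.p6 matched 4 of the 5 genes, all but Per2, with 5 windows in all, of which the 250 bases before the start were searched. Per1 (ENSMUSG00000020893, chromosome 11, 69095217 to 69109960, plus strand) had windows at chr11:69098699-69098948 and chr11:69099902-69100151. The other windows lay at chr4:151044666-151044915 for Per3 (ENSMUSG00000028957, minus strand), at chr10:85185055-85185304 for Cry1 (ENSMUSG00000020038, minus strand) and at chr2:92434070-92434319 for Cry2 (ENSMUSG00000068742, minus strand). They are written 5′ to 3′ on the strand of the gene, ending at the base before the start, with the letters that matched one of the motifs searched in capitals.
Per1, first window: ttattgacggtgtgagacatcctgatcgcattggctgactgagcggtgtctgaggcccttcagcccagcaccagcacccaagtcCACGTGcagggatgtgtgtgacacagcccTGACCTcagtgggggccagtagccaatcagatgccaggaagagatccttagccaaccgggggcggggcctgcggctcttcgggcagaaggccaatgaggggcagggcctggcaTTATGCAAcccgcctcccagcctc
Per3: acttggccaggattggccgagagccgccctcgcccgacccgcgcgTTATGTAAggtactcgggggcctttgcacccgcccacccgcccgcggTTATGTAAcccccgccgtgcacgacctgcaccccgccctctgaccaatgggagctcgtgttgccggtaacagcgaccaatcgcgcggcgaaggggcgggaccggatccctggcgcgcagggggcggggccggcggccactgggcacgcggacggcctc
Cry1: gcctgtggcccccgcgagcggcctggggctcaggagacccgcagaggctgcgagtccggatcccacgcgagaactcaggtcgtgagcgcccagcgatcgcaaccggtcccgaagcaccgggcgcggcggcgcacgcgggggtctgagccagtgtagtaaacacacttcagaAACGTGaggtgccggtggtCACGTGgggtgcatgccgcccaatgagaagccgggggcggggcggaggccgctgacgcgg
Cry2: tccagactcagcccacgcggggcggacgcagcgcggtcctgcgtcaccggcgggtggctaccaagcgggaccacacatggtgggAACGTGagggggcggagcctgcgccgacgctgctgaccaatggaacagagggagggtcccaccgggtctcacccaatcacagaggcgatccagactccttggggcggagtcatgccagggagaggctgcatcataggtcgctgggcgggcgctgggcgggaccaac

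Both strands were searched for the E-box CACGTG, for the E-box variant CACGTT, for the D-box TTATGTAA and its variant TTATGCAA, for the cAMP response element TGACGTCA, and for the nuclear receptor half-site AGGTCA. None of these strings of letters contains another. The first Per1 window held the E-box 166 to 161 bases before the start, the half-site on the other strand at 137 to 132 and the D-box variant at 24 to 17. The Per3 window held the D-box at 205 to 198 and again at 158 to 151. The Cry1 window held the E-box at 60 to 55 and the E-box variant at 79 to 74, and the Cry2 window held the E-box variant at 166 to 161. The second Per1 window held none of these letters and is not printed. Among 32851 promoter windows of 250 bases in the same table, 6.02% held the E-box, 3.85% its variant, 0.819% the D-box, 0.694% the D-box variant, 1.55% the cAMP response element and 14.02% the half-site. A match in such a window is a description of its letters and does not show that a factor binds there.

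The unit of level is the scaled count: whole counts were rebuilt from the deposited numbers and multiplied by a factor for each library. Gene length is not taken out of it, so genes can be set against each other only after division by length. One scaled count stands for between 304 and 723 recovered counts, depending on the library, and a library held 302 to 677 M of these in all (M stands for 1000000 counts). Within groups, libraries correlated across genes with r between 0.966 and 0.990 (84 pairs). Hepatocyte markers were high in all libraries, with a summed level of 4 measured markers between 81790 and 105300 scaled counts under DRF and between 77290 and 135200 under NRF. The 3 Kupffer cell markers summed to between 323 and 589 under DRF and between 327 and 762 under NRF, the 3 endothelial markers to between 255 and 358 and between 260 and 374, and the 3 stellate cell markers to between 539 and 813 and between 567 and 777. The 3 markers of B and T cells summed to at most 2.90, those of cholangiocytes to at most 9.68, and the 1 pancreas marker measured (Cela2a) was at most 0.768. The 2 erythroid markers summed to between 335 and 1244 under DRF and between 265 and 766 under NRF. No marker measured was at 0 in any library. The adipocyte markers Adipoq and Plin1 were sought and were not among the genes rebuilt. The part of any of these cell types in the results was not tested. In whole tissue, fewer cells of a type and less RNA per cell cannot be told apart.

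Per1, the period gene that responds fastest to external signals, had its maximum under DRF at ZT0 and under NRF at ZT12. At ZT0 the DRF livers of replicates 1 to 4 held 15.5, 28.9, 20.3 and 22.3 scaled counts, against 3.05, 1.35, 1.40 and 3.94 in the NRF livers. At ZT12 the DRF livers held 5.26, 5.70, 6.70 and 9.80 and the NRF livers 21.7, 26.7, 22.7 and 19.1. The groups did not overlap at either time, with DRF above at ZT0 and below at ZT12. The lowest groups were DRF ZT16, with 4.41 ± 2.18 (SD, n = 4), and NRF ZT4, with 0.782, 1.01, 1.08 and 1.36 in its livers. The highest group mean was 4.93 times the lowest under DRF and 21.3 times under NRF. From ZT4 to ZT20 the DRF means lay between 4.41 and 7.08. At ZT24, the same time of day as ZT0 in other animals, the DRF mean was 9.90 ± 4.05 (SD, n = 4). The level of the DRF ZT0 group was thus not reached again at that time of day. Under NRF, Per1 went through 9.47 ± 2.97 (SD, n = 4) at ZT8, 22.6 ± 3.18 at ZT12 and 8.93 ± 2.83 at ZT16.

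Per2 (ENSMUSG00000055866, chromosome 1, 91415982 to 91459324, minus strand), whose protein is a core part of the repressor complex, had its maximum at ZT4 in DRF livers and at ZT16 in NRF livers. The DRF livers held 99.05, 84.7, 91.2 and 94.2 scaled counts at ZT4, where the NRF livers held 9.28, 4.999, 4.25 and 3.89. At ZT16 the DRF livers held 13.6, 11.6, 11.9 and 11.2 and the NRF livers 108, 105, 93.3 and 79.0. Each regimen's highest livers thus lay far above all livers of the other regimen at the same time. The highest group mean was 7.64 times the lowest under DRF and 17.2 times under NRF, with the lowest group at DRF ZT16 (12.1 ± 1.08, SD, n = 4) and at NRF ZT4 (5.603 ± 2.495). After the peak the DRF mean went from 92.3 ± 6.00 (SD, n = 4) at ZT4 to 30.8 ± 10.8 at ZT8, and the NRF mean from 96.3 ± 13.2 at ZT16 to 68.1 ± 11.5 at ZT20.

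Per3 (chromosome 4, 151003652 to 151044665), a period gene that is dispensable for the core loop, peaked with Per1 in both regimens, at ZT0 (DRF) and ZT12 (NRF). The ZT0 livers held 45.2, 48.05, 46.3 and 43.9 scaled counts under DRF and 3.92, 3.12, 3.51 and 1.60 under NRF. The ZT12 livers held 8.09, 7.68, 4.82 and 5.40 under DRF and 60.8, 52.95, 62.7 and 50.1 under NRF. No liver of one regimen reached those of the other at these times. Per3 had the deepest trough of the 5 genes by ratio, with NRF ZT4 at 1.95 ± 0.490 (SD, n = 4), which is 29.0-fold below NRF ZT12, while under DRF the highest mean was 8.11 times the lowest (5.65 ± 0.990 at ZT16).

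Cry1 (chromosome 10, 85131700 to 85185064), the cryptochrome whose transcript comes late in the cycle, was highest at ZT8 under DRF and at ZT20 under NRF. At ZT8 the DRF livers held 147, 139, 147 and 146 scaled counts and the NRF livers 14.9, 15.3, 17.04 and 19.3. At ZT20 the DRF livers held 32.99, 31.4, 36.8 and 34.2 and the NRF livers 154, 194.5, 204 and 190. Cry1 thus had its trough under NRF at the time of its peak under DRF, and the highest mean was 4.33 times the lowest under DRF and 11.2 times under NRF. Under DRF the trough was flat and wide, with means of 33.9 ± 2.26 at ZT20, 33.9 ± 8.04 at ZT24 and 33.4 ± 5.37 at ZT0 (SD, n = 4 each), whereas under NRF the mean was 16.6 ± 2.010 at ZT8 and 35.3 ± 12.2 and 50.1 ± 13.9 at the times on either side.

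Cry2 (chromosome 2, 92403646 to 92434043), the second cryptochrome, moved least. Under DRF it was flat, with group means between 35.8 and 39.4 scaled counts, except for a dip at ZT12, where the livers held 22.3, 21.3, 23.9 and 21.4. Under NRF it took a pair of levels, between 24.6 and 26.1 at ZT24, ZT0 and ZT4 and between 37.6 and 45.9 from ZT8 to ZT20. The NRF ZT12 livers held 38.7, 44.5, 50.1 and 38.01, all above the DRF livers of that time. The highest mean was 1.77 times the lowest under DRF and 1.87 times under NRF, the smallest ratios of the 5 genes. In its exons, 295 bases (4.67%) also belong to exons of D930015M05Rik on the opposite strand, a processed transcript with a mean of 1.25 scaled counts. Whether strand was used in counting is not given in the sources used here, so reads in those bases cannot be told apart. Per3 lies within Camta1 on the same strand and shares 0 exon bases with it.

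**Figure D1:**
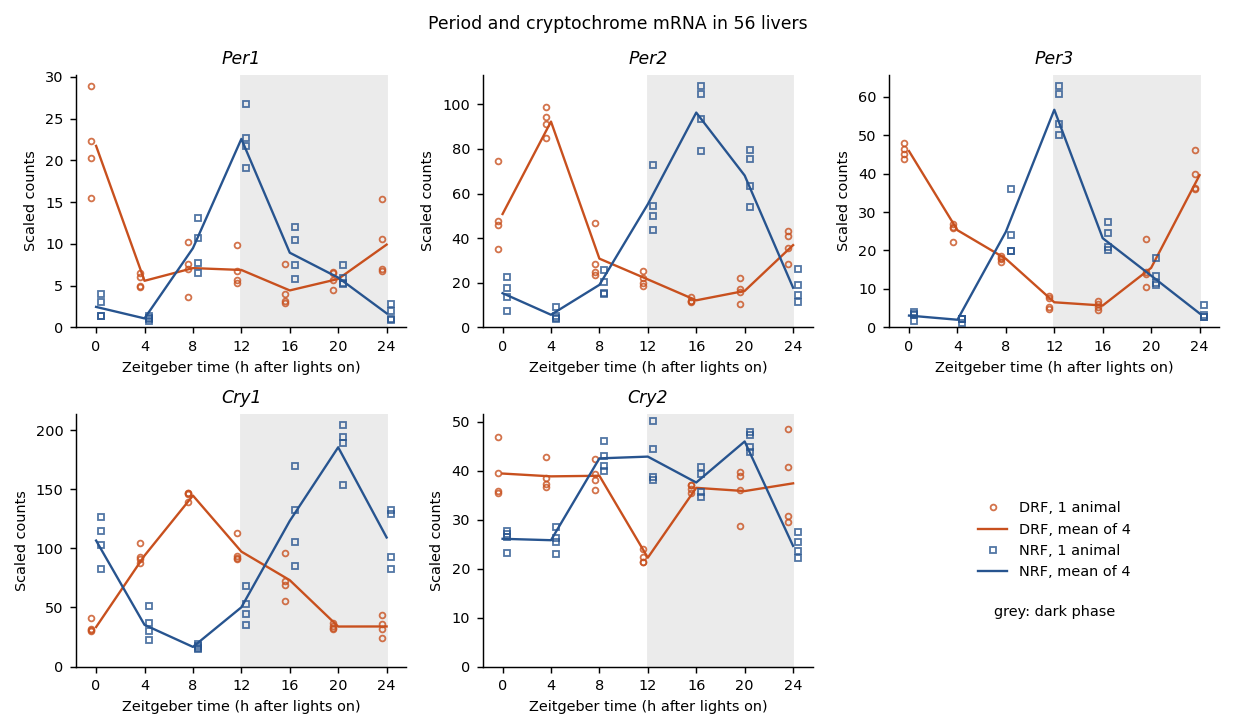
Scaled counts of each gene (vertical axis) by zeitgeber time in hours (horizontal axis) in 28 livers per regimen, each open symbol 1 animal and each line the mean of 4, with the dark phase in grey. Per1, Per2, Per3 and Cry1 rise under one regimen where they are low under the other, and Cry2 shows a single dip at DRF ZT12 against a low stretch from NRF ZT24 to ZT4.

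In the order of the 14 group means of a gene, most neighbours overlapped in their livers. Of 13 neighbouring pairs, the ranges were separate in 1 for Per1 (below DRF ZT0), in 2 for Per2 (below DRF ZT4 and above NRF ZT4), in 4 for Per3, in 2 for Cry1 (below NRF ZT20 and above NRF ZT8) and in 1 for Cry2 (below DRF ZT20). The peak groups of both regimens stood next to each other at the top for Per1 (NRF ZT12 and DRF ZT0), Per2 (NRF ZT16 and DRF ZT4), Per3 (NRF ZT12 and DRF ZT0) and Cry1 (NRF ZT20 and DRF ZT8). The livers of these neighbours overlapped for Per1 and Per2 and did not for Per3 and Cry1, where NRF was higher. The median coefficient of variation within groups was lowest in Cry2 (7.22% under DRF and 7.89% under NRF) and highest in Per1 (29.8% and 31.4%).

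Whether each gene oscillated within a regimen was tested with limma, as an F test of a 24-h cosine and sine on log2(scaled count + 1), adjusted by Benjamini-Hochberg over all 25243 genes. All 5 genes passed under NRF, where 43.3% of all genes did, with adjusted p from 8.58e-20 for Cry1 and 4.17e-18 for Per3 through 3.57e-17 for Per2 and 1.33e-10 for Per1 to 1.34e-05 for Cry2. All 5 also passed under DRF, where 34.7% of all genes did. Here Cry1 (limma adjusted p = 9.44e-14), Per3 (5.07e-12) and Per2 (1.27e-10) passed far below the threshold, while Per1 (0.0214) and Cry2 (0.0173) lay close to it. By an exact Kendall rank test against 12 cosine shapes, neither Per1 (adjusted p = 0.182) nor Cry2 (adjusted p = 0.202) passed under DRF, and the other 8 tests did, where 32.0% of all genes passed under DRF and 33.4% under NRF. The limma call of Per1 under DRF was also lost without DRF ZT0 replicate 2 (adjusted p = 0.0571) or replicate 4 (0.0514), and that of Cry2 without DRF ZT12 replicate 1 (0.0575), 2 (0.0638) or 4 (0.0629), and without the ZT0 libraries neither Per1 (0.462) nor Cry2 (0.0536) passed.

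The 24-h pattern differed between DRF and NRF in all 5 genes. The limma F test of the differences in the cosine and sine terms gave adjusted p = 7.28e-23 for Cry1, 2.37e-21 for Per3, 4.48e-20 for Per2, 3.33e-10 for Per1 and 1.45e-06 for Cry2, and 38.5% of all genes passed this test. A further test asked what remained if one regimen were the other moved by exactly 12 h at the same amplitude. After this shift 4 of the 5 genes still differed, Cry1 (limma adjusted p = 1.299e-05), Per1 (0.00148), Per3 (0.00758) and Per2 (0.00908), and Cry2 did not pass (0.317), where 34.0% of all genes did. The Per2 call was lost with a length index of the libraries as a covariate (adjusted p = 0.125). This index gives, for each library, how its deviations from the mean of all libraries rank with the exon length of the genes (a correlation over genes).

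At the same time of day, 28 of the 35 comparisons of a gene between regimens passed at a limma adjusted p of 0.05 in a fit over the 14 groups, 15 with DRF higher and 13 with DRF lower. The share of all genes that passed from ZT0 to ZT24 in steps of 4 h was 15.8%, 20.2%, 12.8%, 15.0%, 15.0%, 13.6% and 13.9%. The median size of the 35 differences was 1.44 on the log2 scale. Log2 values here are differences of log2(scaled count + 1), which understate the change of low genes.

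At ZT0 and at ZT24 all 5 genes passed, with Per1, Per2, Per3 and Cry2 higher and Cry1 lower under DRF. The log2 differences at ZT0 were 3.58 ± 0.20 (SE) for Per3, 2.77 ± 0.27 for Per1, 1.72 ± 0.26 for Per2, 0.57 ± 0.10 for Cry2 and −1.64 ± 0.20 for Cry1. At ZT4 all 5 were higher under DRF, led by Per2 with 3.89 ± 0.26 (limma adjusted p = 4.28e-15), a 16.5-fold ratio of the means, and by Per3 with 3.17 ± 0.20. At ZT8, 1 of the 5 genes passed, Cry1, which was 8.70-fold higher under DRF (3.05 ± 0.20, limma adjusted p = 1.94e-15). There the differences of Per1 (−0.40 ± 0.27), Per2 (0.64 ± 0.26), Per3 (−0.42 ± 0.20) and Cry2 (−0.12 ± 0.10) did not pass, although the Per3 livers of the regimens did not overlap. That of Per2 passed with the length index as a covariate (0.77, adjusted p = 0.0274).

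In the dark phase most signs turned. At ZT12 Per3 (−2.96 ± 0.20), Per1 (−1.61 ± 0.27), Per2 (−1.31 ± 0.26) and Cry2 (−0.91 ± 0.10) were lower and Cry1 (0.98 ± 0.20) higher under DRF. At ZT16 Per2 was 7.97-fold higher under NRF (−2.89 ± 0.26), and Per3 (−1.86 ± 0.20), Per1 (−0.90 ± 0.27) and Cry1 (−0.73 ± 0.20) were also lower under DRF, while Cry2 (−0.04 ± 0.10) did not pass. The ZT16 call of Per1 was lost without DRF replicate 3 (adjusted p = 0.0681), DRF replicate 4 (0.0769), NRF replicate 3 (0.0638) or NRF replicate 4 (0.0624), and that of Cry1 without DRF replicate 3 (0.0516). At ZT20 Cry1 (−2.41 ± 0.20, 5.48-fold higher under NRF), Per2 (−2.03 ± 0.26) and Cry2 (−0.36 ± 0.10) were lower under DRF, and Per1 (−0.04 ± 0.27) and Per3 (0.16 ± 0.20) did not pass. Without DRF ZT20 replicate 4 the Cry2 call was lost (adjusted p = 0.114).

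When levels at times 12 h apart were compared, 11 of 30 differences passed, 8 with DRF higher and 3 with DRF lower, and the median size over the 30 was 0.42 on the log2 scale. The share of all genes that passed was 5.48% for DRF ZT0 and ZT24 against NRF ZT12, 14.6% for DRF ZT4 against NRF ZT16, 11.4% for DRF ZT8 against NRF ZT20, 4.51% for DRF ZT12 against NRF ZT0 and ZT24, 17.0% for DRF ZT16 against NRF ZT4 and 16.2% for DRF ZT20 against NRF ZT8.

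Of the 11 differences that passed, 5 lay at one time. At DRF ZT16 against NRF ZT4, the time of the lowest Per levels, all 5 genes were higher under DRF. The differences were 1.33 ± 0.27 (SE) for Per1 (4.17-fold, limma adjusted p = 0.000455), 1.18 ± 0.20 for Per3 (2.90-fold, 3.60e-05), 1.06 ± 0.20 for Cry1 (2.07-fold, 0.000139), 1.05 ± 0.26 for Per2 (2.16-fold, 0.00326) and 0.49 ± 0.10 for Cry2 (1.42-fold, 0.000749). In each gene no DRF liver overlapped an NRF liver, and the share of all genes without such overlap was not computed. At DRF ZT12 Per1 (1.41 ± 0.23, adjusted p = 0.000175) and Per3 (0.82 ± 0.17, 0.00271) were higher than at NRF ZT0 and ZT24, and Per2, Cry1 and Cry2 did not pass. At DRF ZT20, against NRF ZT8, the trough of Cry1 was 2.04-fold higher under DRF (0.99 ± 0.20, limma adjusted p = 0.000355) and Per3 was lower (−0.66 ± 0.20, adjusted p = 0.0157). The Per3 call was lost without DRF ZT20 replicate 2 (adjusted p = 0.102) or NRF ZT8 replicate 3 (0.117).

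The other times held the peaks. None of the 5 genes passed at DRF ZT4 against NRF ZT16, where Per2 peaks and where its means were 92.3 ± 6.00 and 96.3 ± 13.2 (SD, n = 4 each, log2 difference −0.05 ± 0.26, SE). At DRF ZT8 against NRF ZT20 Per2 was lower under DRF by 2.21-fold (−1.16 ± 0.26, limma adjusted p = 0.00257), and with the length index as a covariate this difference was −0.65 and did not pass (adjusted p = 0.262). The length index was −0.236 ± 0.0584 (SD, n = 4) at DRF ZT8 and 0.113 ± 0.158 at NRF ZT20. Cry1, which peaks at these times, held 145 ± 3.898 under DRF and 186 ± 22.1 under NRF (SD, n = 4), and its livers did not overlap, but the difference of −0.35 ± 0.20 did not pass over all genes (adjusted p = 0.27). At DRF ZT0 and ZT24 against NRF ZT12 the call was Cry1 (−0.54 ± 0.17, adjusted p = 0.0495), at the edge of the threshold and lost when any 1 of 41 of the 56 libraries was left out. Per1 at these times was 15.8 ± 7.76 (SD, n = 8) against 22.6 ± 3.18 (n = 4) and did not pass (limma adjusted p = 0.117). With the DRF ZT24 livers alone it was lower under DRF (−1.17, adjusted p = 0.00397).

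**Figure D2:**
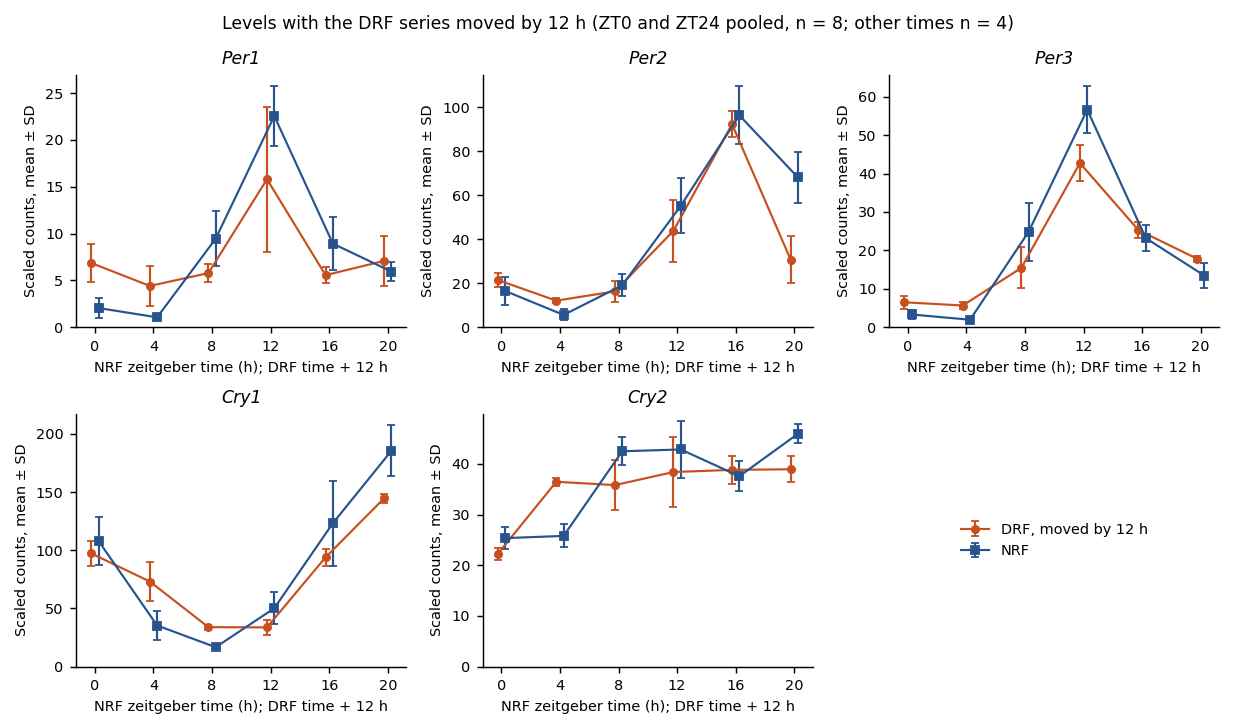
Mean scaled counts ± SD (vertical axis) by zeitgeber time under NRF in hours (horizontal axis), with the DRF series moved by 12 h; ZT0 and ZT24 are pooled (8 animals) and other points are 4 animals. At the point of NRF ZT4 the moved DRF level is the higher one in all 5 genes, at that of NRF ZT8 it is higher in Cry1, and at that of NRF ZT20 it is lower in Per2.

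**Figure D3:**
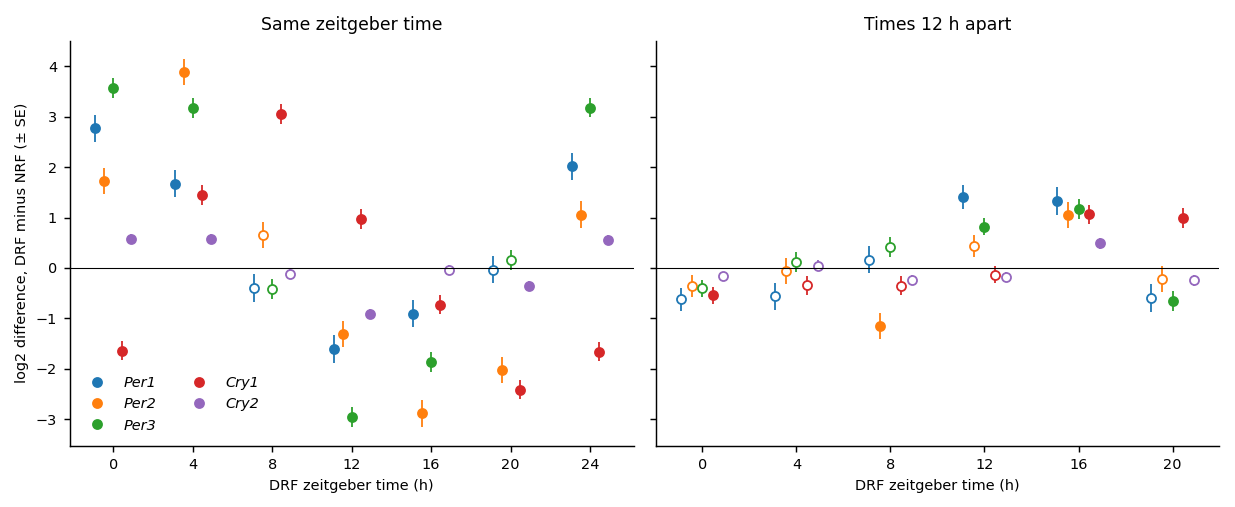
Log2 difference DRF minus NRF ± SE (vertical axis) by DRF zeitgeber time in hours (horizontal axis), at the same time (left) and at times 12 h apart (right), with filled points at a limma adjusted p under 0.05 and open points above it. At the same time 28 of 35 points pass and reach 3.89, and 12 h apart 11 of 30 pass and none exceeds 1.41 in size.

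Peak times were estimated from a least-squares 24-h cosine on scaled counts. Under NRF, Per3 peaked at 12.5 h ± 0.392 (SE, n = 28) and Per1 at 12.6 h ± 0.64, followed by Cry2 at 13.9 h ± 0.725, Per2 at 16.1 h ± 0.306 and Cry1 at 19.5 h ± 0.232. Under DRF, Per1 peaked at 0.649 h ± 1.27 (SE, n = 28), Cry2 at 1.21 h ± 1.34, Per3 at 1.37 h ± 0.473, Per2 at 3.98 h ± 0.443 and Cry1 at 9.02 h ± 0.362. In both regimens the fitted peaks of Per1 and Per3 thus came before that of Per2, and that of Per2 before that of Cry1. From Per1 to Per2 the lag was 3.33 h ± 1.39 (SE) under DRF and 3.56 h ± 0.741 under NRF. The place of Per1 under DRF rests on the ZT0 livers. Without the ZT0 libraries its DRF peak was at 2.38 h ± 3.16 (SE) and that of Per2 at 3.97 h ± 0.495, which leaves their order unsettled. From Per1 to Per3 the lag was 0.722 h ± 0.996 (SE) under DRF and −0.0887 h ± 0.458 under NRF, within its error in both.

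The peaks of the regimens lay 11.9 h ± 1.42 (SE) apart for Per1, 11.8 h ± 0.539 for Per2, 11.1 h ± 0.614 for Per3, 10.5 h ± 0.43 for Cry1 and 11.3 h ± 1.53 for Cry2. Set against 12 h, the shift of Cry1 was short by 1.54 h (95% interval 0.675 to 2.40), while the intervals of Per1 (−2.78 to 2.92), Per2 (−0.92 to 1.24), Per3 (−0.355 to 2.11) and Cry2 (−2.38 to 3.75) held 0. With a 12-h component added to the curve, the peaks of Cry1 lay 11.98 h apart, and those of Cry2 4.59 h. The lag from the Per2 peak to the Cry1 peak was 5.04 h ± 0.574 (SE) under DRF and 3.34 h ± 0.389 under NRF, a difference of 1.70 h (95% interval 0.308 to 3.09), and was examined after its values had been seen. From the peaks of the curves with a 12-h component, this lag was 4.04 h for DRF and 3.11 h for NRF, 0.93 h apart. The lag from Per3 to Per2 was 2.60 h ± 0.728 in DRF livers and 3.65 h ± 0.544 in NRF livers, with a difference whose 95% interval ran from −2.87 to 0.785 h. Among the 5785 genes rhythmic in both regimens, the median shift was 8.13 h, with 4.15 to 10.5 h between the quartiles.

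Fitted amplitudes were lower under DRF in each of the 5 genes, and for 1 of them the difference passed adjustment over the 5785 genes, of which 10.2% passed. Cry1 fell from an amplitude of 80.1 ± 5.33 scaled counts (SE, n = 28) under NRF to 53.97 ± 5.10 under DRF (difference −26.1 ± 7.38, Wald test over all rhythmic genes, adjusted p = 0.0149). The differences were −14.01 ± 5.54 for Per2 (adjusted p = 0.0995), −4.10 ± 1.74 for Per1 (0.132), −4.17 ± 2.30 for Cry2 (0.276) and −4.00 ± 2.86 for Per3 (0.448) in the fit over n = 56 livers. The ratio of the amplitudes, DRF to NRF, was 0.506 for Per1, 0.549 for Cry2, 0.674 for Cry1, 0.694 for Per2 and 0.819 for Per3, against a median of 0.908 over the genes rhythmic in both regimens. The ratio of Per1 was 0.136 without the ZT0 libraries, with a difference of −7.74 that passed (Wald test over all rhythmic genes, adjusted p = 0.000226), and 0.337 with the values as deposited. The amplitude difference passed in 4 of the 5 genes, all but Cry2, when the cosine was fitted to log2(scaled count + 1), where 10.0% of the 5785 genes passed, so the number of calls among the 5 genes depends on the scale. On the linear scale Per1 passed without DRF ZT0 replicate 2 (adjusted p = 0.0244), and Per2 without DRF ZT4 replicate 1 (0.0358) or 4 (0.0452).

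**Figure D4:**
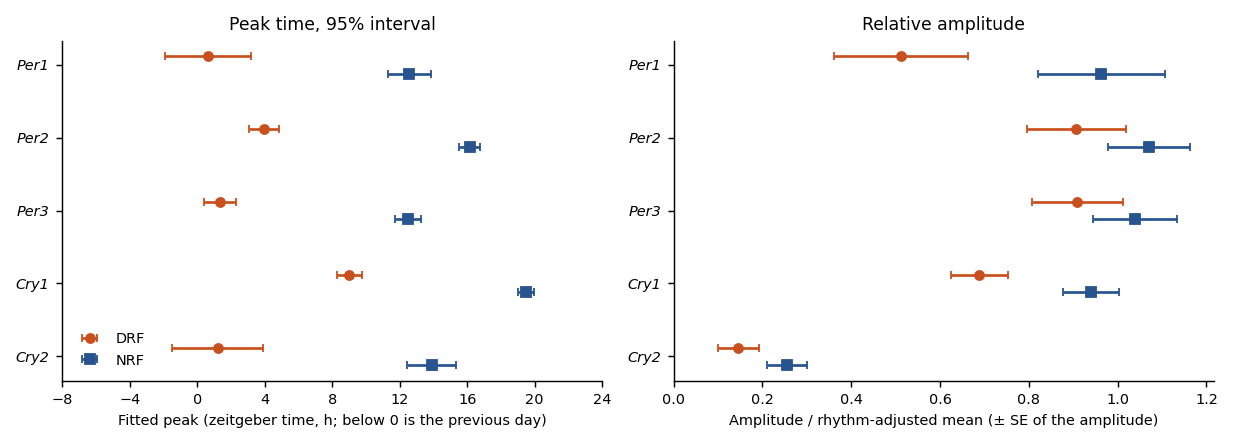
Left, fitted peak in zeitgeber hours with its 95% interval (horizontal axis) for each gene and regimen; right, amplitude divided by the rhythm-adjusted mean, ± SE of the amplitude. The peaks run from Per1 and Per3 through Per2 to Cry1 in both regimens, 10.5 to 11.9 h apart between regimens, and every relative amplitude is lower under DRF.

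The rhythm-adjusted mean, the level around which the cosine turns, did not pass in any of the 5 genes, where 6.71% of all genes did. The log2 differences DRF minus NRF were 0.25 ± 0.13 (SE) for Per3 (limma unadjusted p = 0.0519, adjusted 0.259), 0.23 ± 0.16 for Per1, 0.08 ± 0.09 for Cry1, −0.04 ± 0.07 for Cry2 and −0.07 ± 0.12 for Per2. The sign for Per3, Per1 and Cry1 depends on the scale. Fitted on scaled counts, the mean was lower under DRF in all 5 genes, with 19.9 against 21.2 for Per3, 8.17 against 8.61 for Per1 and 78.4 against 85.2 for Cry1. These means on scaled counts were not tested. The number of the 5 genes at an unadjusted p under 0.05 was also 0.

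A 12-h component was tested to describe departure from a single cosine. Under NRF it passed for Per3 (limma adjusted p = 1.89e-06), Cry2 (0.00057) and Per1 (0.0137), where 1.93% of all genes passed, and not for Per2 (0.238) or Cry1 (0.33). Under DRF it passed for Per1 (0.0076), Cry2 (0.0088) and Cry1 (0.0241), where 4.65% of all genes passed, and not for Per3 (0.053) or Per2 (0.108). The difference between regimens in this component was not tested. With the values as deposited, none of the 3 calls under DRF passed (limma adjusted p = 0.0515 for Per1, 0.17 for Cry2 and 0.203 for Cry1), and that of Per1 was also lost without the ZT0 libraries (0.072). The Per1 call under NRF was lost without NRF ZT16 replicate 1 (adjusted p = 0.0524). The Cry1 call under DRF was lost without DRF ZT4 replicate 4 (0.0614), DRF ZT12 replicate 1 (0.0541) or DRF ZT16 replicate 1 (0.0588). Per3 passed under DRF when any 1 of 12 libraries was left out, and Per2 without DRF ZT20 replicate 4 (0.0443). In these profiles the narrow features were the single peak group of Per1 at DRF ZT0, the dip of Cry2 at DRF ZT12 and the sharp ZT12 peak of Per3 under NRF.

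ZT0 and ZT24 are the same time of day in different animals. Between them, 1 of the 10 comparisons of a gene passed, Per1 under DRF, where 3.07% of all genes passed, and 0 under NRF, where 7.82% did. Per1 fell by 1.10 on the log2 scale from ZT0 to ZT24 under DRF (SE 0.27, limma adjusted p = 0.0169), from 21.7 ± 5.56 to 9.90 ± 4.05 scaled counts (SD, n = 4 each), with 15.5 the lowest of the ZT0 livers and 15.4 the highest of the ZT24 livers. The call was lost without DRF ZT0 replicate 2 (adjusted p = 0.0737) or 3 (0.0522), or DRF ZT24 replicate 1 (0.0698) or 2 (0.062). It was also lost with the length index as a covariate, with a change of −1.08 (adjusted p = 0.175), and with the values as deposited (0.204). The length index was −0.128 ± 0.0696 (SD, n = 4) at DRF ZT0 and 0.180 ± 0.0604 at DRF ZT24, and beyond the covariate fit its part in the result was not tested. The other changes under DRF were −0.42 ± 0.26 (SE) for Per2, −0.21 ± 0.20 for Per3, −0.09 ± 0.10 for Cry2 and 0.00 ± 0.20 for Cry1. The change of Per1 was −0.35 ± 0.27 under NRF, and the difference between the regimens in this change was −0.75 ± 0.38 and did not pass (limma adjusted p = 0.83). That difference was tested after the values had been seen, and 1 of 25243 genes passed it.

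Divided by exon length, so that the genes could be set side by side, Cry1 was the most abundant of the 5 and Per1 and Per3 the least. Over the 28 livers of a regimen, the level per kb of exon was 21.8 ± 12.2 scaled counts (SD) for Cry1 under DRF and 26.8 ± 17.6 under NRF. It was 6.36 ± 4.63 and 6.77 ± 5.64 for Per2, 5.63 ± 1.11 and 5.54 ± 1.45 for Cry2, 2.32 ± 1.55 and 1.88 ± 1.95 for Per3, and 1.56 ± 1.11 and 1.32 ± 1.295 for Per1. Most of these SDs are the daily cycle itself, since they are taken over all times.

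Cry1 oscillated strongly and Cry2 weakly, and the balance of the cryptochromes changed through the day. The ratio of Cry1 to Cry2 per kb ranged from 1.64 ± 0.40 (SD, n = 4) at DRF ZT0 to 8.32 ± 1.18 at DRF ZT12, and from 0.740 ± 0.0735 at NRF ZT8 to 8.33 ± 1.33 at NRF ZT24. In each regimen the highest ratio fell in the group with the lowest Cry2, after the Cry1 peak. From DRF ZT8 to ZT12 mean Cry1 went from 145 to 97.3 scaled counts and mean Cry2 from 38.9 to 22.2. From NRF ZT20 to ZT24 Cry1 went from 186 to 109 and Cry2 from 45.9 to 24.6. At NRF ZT8 each of the 4 livers had less Cry1 than Cry2 per kb (ratios between 0.687 and 0.848), whereas the DRF group means stayed above 1 and 1 DRF liver, at ZT24, was at 0.958. At DRF ZT8 the ratio was 7.05 ± 0.338 (SD, n = 4), with every liver above every NRF liver of the same time. The ratio at DRF ZT12 and at NRF ZT0 (7.71 ± 1.03) and ZT24 overlapped.

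**Figure D5:**
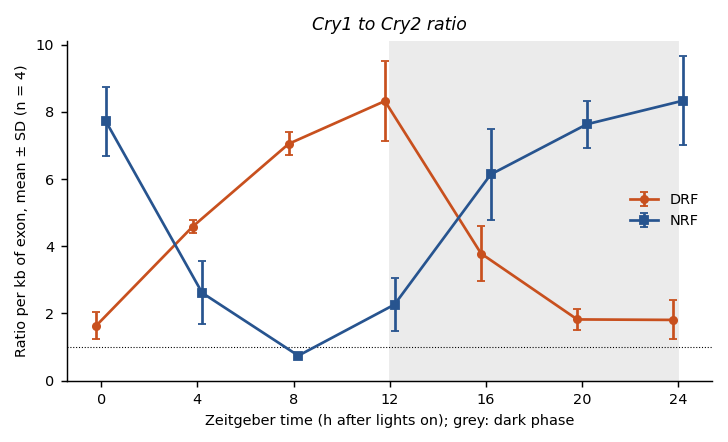
Ratio of Cry1 to Cry2 scaled counts per kb of exon, mean ± SD of 4 animals (vertical axis), by zeitgeber time in hours (horizontal axis), with the dark phase in grey and a dotted line at 1. The DRF curve is highest at ZT12 (8.32) and the NRF curve lowest at ZT8 (0.740).

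Across the 56 libraries, which share the sampling times of the study, Per1 and Per3 followed each other most closely on the log2 scale (Pearson r = 0.854), followed by Per2 and Per3 (0.717), Per3 and Cry2 (0.702), Per1 and Per2 (0.593), Per1 and Cry2 (0.578) and Per2 and Cry2 (0.521). Cry1 correlated with Per2 at 0.34 and with Per3 at −0.263. Once the group means were taken out, so that differences between animals of one group remained, r was 0.36 between Per2 and Cry1, 0.337 between Per2 and Per3 and 0.302 between Per1 and Cry1, and lay between −0.159 and 0.0928 for the other 7 pairs (n = 56 libraries). Per1 and Per3, the closest pair over the day, had r = −0.0527 between animals of a group. These values are descriptions of libraries that also share depth and scaling.

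The genes whose pattern over the 56 libraries was most like each member were taken among genes with a mean scaled count of at least 1. For Per3 they were Tef (r = 0.949), a D-box factor, Usp2 (0.945), a deubiquitinase, and Wee1 (0.939), a kinase that restrains entry into mitosis. For Per1 they were Usp2 (0.871), Klf13 (0.862), a zinc finger factor, and Kcnk5 (0.861), a potassium channel. For Per2 they were Homer2 (0.917), a scaffold protein, Plekha8 (0.913), a lipid transfer protein, and Pdxk (0.912), which makes active vitamin B6. For Cry1 they were Ppp1r3b (0.922), a glycogen-targeting subunit of protein phosphatase, Lonrf3 (0.91) and Slc10a2 (0.895), a bile acid transporter. For Cry2 the likeness was lower, with Tef (0.755) and Foxo3 (0.749), a forkhead factor.

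The other genes of the pathway were read from lists of 54 genes, of which 51 were tested. The 24-h pattern differed between regimens in 35 of the 51 by limma over all genes, where 38.5% of all genes passed. In the positive arm 3 of 3 passed and in the other clock loops 10 of 11. Of the kinases and phosphatases that act on PER or CRY 7 of 13 passed, of the ubiquitin enzymes 4 of 8, of the partners in the repressor complex 6 of 8, and of the inputs to Per transcription 5 of 8. In the last group Creb1, the cAMP-responsive factor, did not pass the rhythm test in either regimen (limma adjusted p = 0.535 under DRF and 0.564 under NRF).

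Among listed genes rhythmic in both regimens, the positive arm (3 genes) had a median shift of 10.6 h and the other clock loops (10 genes) one of 10.9 h, with a range from 10.2 to 11.8 h. Lower amplitude under DRF was not particular to the 5 members. The median ratio of amplitudes, DRF to NRF, was 0.720 in the positive arm (2 of 3 lower) and 0.698 in the other clock loops (9 of 10 lower). Over all 31 listed genes rhythmic in both regimens it was 0.805, with 17 lower under DRF. The kinases and phosphatases (7 genes) had a median of 5.20 h and ranged from 1.19 h in Prkaa1 to 10.7 h in Ppp1ca, a catalytic subunit of protein phosphatase 1. Csnk1d, which encodes casein kinase 1 delta, had its DRF peak at 13.4 h and its NRF peak at 18.4 h, with a relative amplitude, the amplitude divided by the mean, of 0.0932 and 0.0883. Prkaa1, a catalytic subunit of AMP-activated kinase, peaked at 17.6 h and 16.4 h, a shift of 1.19 h ± 0.962 (SE), and the difference of its rhythm between regimens did not pass (limma adjusted p = 0.457). Usp2, which removes ubiquitin from PER1 and CRY1, had a relative amplitude of 0.894 under DRF and 1.11 under NRF and peaks at 1.95 h and 13.5 h, 11.5 h ± 0.616 apart. Sik1, a cAMP-induced kinase, peaked at 4.04 h and 15.96 h, 11.9 h ± 1.06 apart, and Tsc22d3, a glucocorticoid-induced gene, peaked at 9.41 h and 17.3 h, 7.93 h ± 0.995 apart (SE).

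The transcript table held 15 transcripts of the 5 genes, whose values were estimated by the authors and are less certain than gene values. In limma over 56489 transcripts, 7 of the 15 passed the rhythm test under DRF (11.2% of all transcripts), 9 under NRF (16.1%) and 10 the rhythm difference (14.8%). A single transcript carried almost all of the summed level for Per2-201 (100%), Cry1-201 (99.9%), Cry2-201 (92.99%) and Per3-201 (89.5%), and each of these followed its gene over the 56 libraries (r of at least 0.992). Their highest groups were those of the genes. The rhythm of Cry2-201 under DRF did not pass (limma adjusted p = 0.0749). For Per1 the estimate was divided among Per1-201 (37.6%), Per1-202 (30.98%) and Per1-203 (31.4%), which followed the gene with r of 0.381, 0.696 and 0.563. Of these, Per1-202 passed the rhythm difference (limma adjusted p = 2.31e-07), and Per1-201 (0.114) and Per1-203 (0.145) did not. The 4 Per3 transcripts each passed it, from Per3-201 (1.12e-19) to Per3-202 (3.72e-07).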

How the data were processed

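Total RNA of each liver was depleted of ribosomal RNA and sequenced as strand-specific paired-end libraries, per the protocol in the labels, whose molecule field says polyA RNA. The submitters' processing notes name CASAVA 1.8, featureCounts 1.5.0-p3 and the builds mm10 and GRCm38.p6. The aligner and the use of strand are not given in the sources used here. The members and gene lists were chosen with earlier results of these data known.

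Values for genes and for transcripts were deposited by the authors under the name TPM, and the gene values summed to between 995320 and 997990 per library. The deposited unit is handled as a score, because a value multiplied by exon length equalled a·ln(1 + f·k), where k is a whole count, and so does not grow in proportion to reads. This was found after the design was written for TPM, and the tests were kept and applied to scaled counts f·k. In genes left out of the fit, 99% of values up to 10 counts and 96.7% of those between 10 and 100 lay within 0.05 of a whole number, and for the 5 genes 100% did. Of 25415 genes, 25243 were rebuilt, 21897 of them with the annotated exon length of GENCODE vM21 and 2085 with a searched length. A further 1149 had the annotated length judged under a wider tolerance of 0.2, and 112 had it with counts too deep to judge. The filter of a mean deposited value of at least 0.1 removed 0 genes. Recovered counts far exceed the depth given for the study and are not called reads. The precision of each value is therefore given by the spread between animals. Of 77120 transcripts, 56489 were rebuilt from a curve of the same form, fitted in each library to the scaled counts of genes with 1 annotated transcript. Between 48.1% and 52.9% of the transcripts used for the fit lay within 2% of the curve, depending on the library. Whole counts were not recovered for transcripts. The circular RNA table was not used. Columns were mapped by name, with 0 of unknown sample.

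Tests used limma 3.58.1 in R 4.3.3 (lmFit, eBayes with trend) on log2(scaled count + 1) over all 56 libraries, Benjamini-Hochberg adjusted with a threshold of 0.05, and were tested on simulated data. Cosine fits, delta-method errors and Wald tests (50 residual degrees of freedom) and the exact Kendall rank test (12 templates with peaks 2 h apart) used Python 3.11.15, numpy 2.4.6 and scipy 1.17.1. Named genes were the 5 members, the 3 most correlated genes of each, listed pathway genes and cell markers. D930015M05Rik is named because it overlaps Cry2. Some genes that this rule names are not reported here. Alternatives were a pseudocount of 0.1, a minimum mean scaled count of 1, median-of-ratios scaling, the length index as a covariate, a replicate block, the values as deposited, leaving out ZT0, ZT24 or each library, and other models of peak time.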

Additional observations from a re-analysis of the deposited data

Results flagged for a closer look

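In 5 of 70 groups of 4 livers, 1 liver stood apart from the other 3 by a gap that, as a share of the group's range, passed Dixon's 95% critical value, and chance flags about 1 group in 20. Per3 was at 1.23 scaled counts in NRF ZT4 replicate 3, against 2.09 to 2.27 in the others, and at 5.83 in NRF ZT24 replicate 1, against 2.66 to 3.197. Cry1 was at 41.4 in DRF ZT0 replicate 2, against 30.2 to 31.5, at 139 (138.9) in DRF ZT8 replicate 2, against 146 to 147, and at 113 (112.9) in DRF ZT12 replicate 4, against 90.8 to 93.3. The cause was not tested.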

How the results depend on the processing

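Of the results for single genes under the alternatives, 7154 stayed on their side of the threshold, 83 lost a call and 28 gained one. Of 5335 differences, 35 changed sign, and 0 of those 35 passed before or after (lowest adjusted p under an alternative 0.13). Most of the results in these counts are refits that left out 1 of the 56 libraries. A difference between groups keeps its size when the library left out belongs to another group. The counts thus cannot measure how far the results depend on the processing. Between ZT0 and ZT24, the 1 call of the 5 genes became 0 with the length index as a covariate and 0 with the values as deposited, and lay between 0 and 1 when single libraries were left out. The 12-h component was called 3 times in place of 6 with the values as deposited. The amplitude difference was called in 4 genes in place of 1 with the values as deposited, in 4 on the log2 scale, in 2 without the ZT0 libraries (817, 580 and 859 of the 5785 genes in place of 590), and in 1 to 2 when single libraries were left out. The phase shift of Per1 was 10.2 h without the ZT0 libraries and that of Per2 11.3 h without the ZT24 libraries. With the values as deposited the shift was 11.8 h for Per3, 9.71 h for Cry1 and 8.18 h for Cry2. With a 12-h component it was 11.1 h (11.05) for Per2, 11.98 h for Cry1 and 4.59 h for Cry2. The cause was not tested.

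With the values as deposited, these calls were also lost: Per1 at ZT16 (limma adjusted p = 0.0542), Cry2 at ZT20 (0.128), Per3 at DRF ZT20 against NRF ZT8 (0.37), Cry1 at DRF ZT0 and ZT24 against NRF ZT12 (0.134) and the rhythm of Per1 under DRF (0.109). Cry2 after the 12-h shift (0.00992) and Cry2 at DRF ZT8 against NRF ZT20 (0.0155) were gained. Same-numbered animals of different groups did not deviate together on average (mean r = 0.00454 over 364 pairs, from −0.418 to 0.305). Pairs with other numbers had a mean r of −0.00149. An average over all pairs cannot show whether some of the animals were paired. With a replicate block, 10 in place of 11 of the 30 differences at times 12 h apart passed, since Cry1 at DRF ZT0 did not (adjusted p = 0.0596), and the block changed no other call of the 5 genes.

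The number of all genes called, against which the 5 genes are read, also moved. With the length index as a covariate it went from 8580 to 4916 after the 12-h shift, and at times 12 h apart from 3686 to 189 at DRF ZT4, from 2877 to 515 at ZT8, from 1139 to 1921 at ZT12 and from 4089 to 2606 at ZT20. Between ZT0 and ZT24 it went from 774 to 15 under DRF and from 1974 to 6 under NRF, and with the values as deposited to 1748 and 5891. The values as deposited also gave 468 in place of 1174 for the 12-h component under DRF, 175 in place of 488 under NRF, and 913 in place of 1384 at DRF ZT0 against NRF ZT12. With ZT0 alone that count was 660, and at DRF ZT12 it was 2492 with ZT0 alone and 381 with ZT24 alone, in place of 1139. When single libraries were left out, the count ranged from 316 to 744 for the 12-h component under NRF.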
